A study of Homo sapiens with 26 samples.

Results

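The regions described here are those in which histone H3 lysine 27 acetylation (H3K27ac) differed between the early (1 h) and late (10 h) Nutlin-3a treatments of parental (WT) HCT116 cells. They were found from 4 peak lists, 2 replicates at each time. Peaks of all 10 H3K27ac lists of the series were merged where they overlapped or touched into 87570 regions, and 63739 of these were called in at least 1 of the 4 lists. A region was late-gained when both Nut 10 h lists and neither Nut 1 h list called it, and late-lost in the opposite case. There were 7789 late-gained regions (12.2% of the 63739) and 1644 late-lost regions (2.58%). These percentages are the background for the counts below, and they follow from the rule itself.

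HCT116 is a colorectal carcinoma cell line with wild-type p53. Nutlin-3a blocks the binding of p53 to HDM2, the ubiquitin ligase that keeps p53 low, and the 0 h cells received the vehicle DMSO. ChIP-seq of H3K27ac and of H3 lysine 4 monomethylation (H3K4me1) was done in WT cells at all 3 times (0, 1 and 10 h), and H3K27ac also at 0 h and 1 h in the RAD21 line, an HCT116 derivative with RAD21 fused to a degron tag so that this cohesin subunit can be degraded with an auxin analogue. The study describes its H3K27ac in these cells as measured after RAD21 degradation, which the labels of the libraries do not state. Each group had 2 replicates, and all cells of a line came from that 1 line, so the replicates stand for cultures of HCT116 and not for different tumours. The labels do not say whether the replicates were grown apart, and the spread between them may be technical.

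H3K27ac marks promoters and enhancers that are in use, whereas H3K4me1 also covers enhancers that are primed but not active. H3K27ac is laid down by the acetyltransferases p300 and CBP, which transcription factors such as p53 recruit. p53 binds a response element of 2 adjoining copies of a 10-base sequence, and over hours it represses much of the DNA replication and mitosis programme through p21, the product of CDKN1A, and the retinoblastoma family, which act at E2F sites and at CHR elements of promoters.

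The 4 lists did not have the same length or form. They held 31640 and 40851 peaks at 1 h (replicates 1 and 2) and 49127 and 46638 at 10 h. The peak names of 1 h replicate 1 lack the word input, which the names in the other 3 lists hold, and those of both WT 0 h lists lack it too. Whether the lists without the word were called against input in the same way is not given in the sources used here, and it would change what their folds and q-values mean. For this reason 1 h replicate 2 is the cleaner reference, and values that rest on it alone are given where they differ. The lists hold no read counts, so read depth was not used, and longer lists reach weaker peaks. In bulk ChIP, a change in the share of cells with the mark and a change per cell cannot be told apart. The promoters of 11 of 13 epithelial and colorectal marker genes, among them EPCAM, CDH1, KRT8 and CDX2, were called in both lists at 1 h and at 10 h, and those of VIL1 and CEACAM5 were not. Of the markers of blood, endothelium, fibroblasts and neural or liver cells, 0 of 6, 0 of 4, 0 of 5 and 0 of 5 were called.

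A small group of late-gained regions held a complete p53 response element in the 300-bp window about the strongest point (summit) of the peak. The 5 sequences that follow are 60-base windows about such sites, read from the + strand of the GRCh37 genome, with the element in capitals. They were chosen after the values were seen, from sites with high H3K27ac percentiles at 10 h. They do not include the sites with the highest percentiles, in introns of CAMK2D and CFTR. All 5 had H3K4me1 in neither 1 h list, unlike those in CAMK2D and CFTR. They lie at chr5:152191704-152191763 in an intron of a non-coding gene with NMUR2 as the nearest protein-coding gene, chr4:132731855-132731914 and chr12:90628394-90628453 between genes, chr4:28353582-28353641 in an intron of a non-coding gene with STIM2 as the nearest coding gene, and chr1:235833388-235833447 in an intron of LYST, near GNG4. The elements labelled PCDH10 and ATP2B1 are almost the same sequence on opposite strands, differing by a single base.
NMUR2: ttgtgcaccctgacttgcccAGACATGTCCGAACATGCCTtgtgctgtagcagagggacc
PCDH10: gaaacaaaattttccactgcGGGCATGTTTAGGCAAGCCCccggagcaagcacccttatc
STIM2: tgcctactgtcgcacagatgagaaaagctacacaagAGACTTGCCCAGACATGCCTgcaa
ATP2B1: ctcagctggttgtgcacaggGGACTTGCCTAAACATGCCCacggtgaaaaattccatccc
GNG4: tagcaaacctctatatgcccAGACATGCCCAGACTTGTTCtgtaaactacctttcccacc

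Gains outnumbered losses in the 4 lists, but the size and the direction of this excess depended on which lists were compared and how long they were. With 1 h replicate 2 alone as the reference there were 8472 late-gained and 8357 late-lost regions, and 6713 of the latter were called in 1 h replicate 2 and in none of the other 3 lists. When every list was shortened to its 31640 strongest peaks, 3037 regions were late-gained and 1958 late-lost, of which 2456 and 1203 belonged to the original sets. With both changes together the order turned, at 3680 gained and 5369 lost. When presence was asked at a −log10 q-value of at least 5, 1728 regions were late-gained and 611 late-lost. A comparison of 2 lists with 2 cannot give an exact permutation p-value under 0.333, so the counts were not tested, and what follows describes which regions they were.

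Late-gained regions were weak and narrow and lay inside genes, away from promoters. Of the 7789 regions, 59.5% were intronic, 28.3% overlapped an exon, 5.98% were intergenic and 6.21% overlapped a promoter (1000 bp upstream to 200 bp downstream of a start site). Late-lost regions were promoters in 19.2%, exonic in 8.15%, intronic in 45.1% and intergenic in 27.6%. The 21437 regions called in all 4 lists (kept regions) were promoters in 58.1%. The 6713 regions called in 1 h replicate 2 alone of the 4 lists were also rarely promoters (7.06%), and 73.6% overlapped a coding gene body. In all, 89.5% of late-gained regions overlapped the body of a protein-coding gene (95% Wilson interval 88.8 to 90.1%), against 56.8% of late-lost (54.3 to 59.1%), 76.7% of kept and 79.0% of the 63739 regions. These intervals cover counting error only, since neighbouring regions share their libraries.

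The median width was 867 bp for late-gained, 925.5 bp for late-lost and 2351 bp for kept regions, and 7.58%, 2.92% and 62.3% of them were 2000 bp or wider. The median distance to the nearest start site of a coding gene was 15579 bp for late-gained, 27015.5 bp for late-lost and 334 bp for kept regions. In the lists that defined them, late-gained regions had a median −log10 q-value of 4.28 and 3.98 (10 h replicates 1 and 2), late-lost regions 5.71 and 5.04 (1 h), and kept regions between 40.6 and 67.0. The lowest 10% of late-gained regions lay at or under 2.03 and 2.04, near the threshold of the peak caller. The 6713 regions of 1 h replicate 2 alone were weak and narrow too, with a median −log10 q-value of 3.03 and a median width of 418 bp. A region that was not called has no value in that list, so how far under the threshold it lay is not known. No late-gained region came above percentile 76.2 and 73.4 of the peaks of the 10 h lists, where 100 is the strongest.

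The H3K4me1 libraries, which the rule did not use, separated the sets. Few late-gained regions carried H3K4me1, at 32.7% and 28.5% in the 0 h lists, 33.1% and 30.0% at 1 h and 34.3% and 37.8% at 10 h. For late-lost regions the shares were 90.5% and 90.1% at 0 h, 94.8% and 92.6% at 1 h and 89.4% and 90.3% at 10 h. Kept regions carried it in 99.0% to 99.2%, and the 63739 regions in 62.8% to 65.8%. The sets do not overlap in any list, and within each set the 3 times differed by a few points only.

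**Figure D1:**
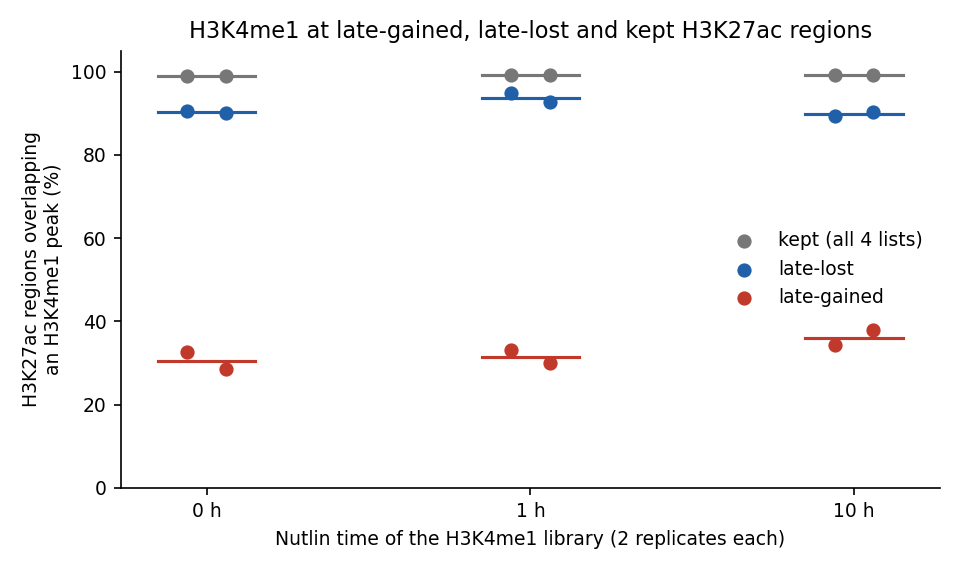
Share of late-gained, late-lost and kept H3K27ac regions that overlapped an H3K4me1 peak (y axis, %), in each of the 6 WT H3K4me1 lists by time of Nutlin-3a (x axis). Points are single libraries and short lines mark the means of both replicates. Late-gained regions lie between 28.5% and 37.8%, and late-lost regions between 89.4% and 94.8%.

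By pattern, 4243 late-gained regions (54.5%, Wilson interval 53.4 to 55.6%) had H3K4me1 in none of the 6 lists, 1872 (24.0%) had it in both 1 h and both 10 h lists, and 393 (5.05%) in both 10 h lists and neither 1 h list. Among late-lost regions 74 (4.50%) had none, 1456 (88.6%) had it in all 6 lists and 1 had it at 10 h and not at 1 h. Late-lost regions thus lost the calls of H3K27ac and mostly kept those of H3K4me1, while 32 (1.95%) had H3K4me1 in both 1 h lists and neither 10 h list. Both descriptions depended on the reference. With 1 h replicate 2 alone, late-gained regions without H3K4me1 were 51.3%, and the late-lost regions with H3K4me1 in both 1 h lists fell from 92.1% to 61.0%.

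The other H3K27ac lists also called few of the late-gained regions. WT cells at 0 h called 8.09% and 6.38% of them, and 36.6% and 42.3% of the late-lost regions, where 41.4% and 40.9% of the 63739 regions were called. The RAD21 line called 20.7% and 25.7% of late-gained regions at 0 h and 18.8% and 19.2% at 1 h. It called 38.3% and 39.5% of the late-lost regions at 0 h and 64.1% and 64.7% at 1 h. Of the 63739 regions it called 44.4% and 46.8% at 0 h and 48.3% and 48.6% at 1 h. The 0 h WT lists lack the word input in their peak names like 1 h replicate 1, and the RAD21 lists hold it, so line, RAD21 degradation and form of name cannot be told apart here.

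The strength of H3K4me1 was compared through ranks, since the lists hold no counts. In each list every region called in all 6 H3K4me1 lists was ranked by −log10 p-value, ranks were turned into normal scores, and limma compared 10 h with 1 h, so that a change of 1 is 1 SD of the scores. Of 60476 regions, 1159 ranked higher at 10 h (1.92%) and 684 lower (1.13%) at a Benjamini-Hochberg adjusted p-value under 0.05, with a median change of −0.01. Of the 1995 tested regions that overlapped late-gained H3K27ac, 198 ranked higher (9.93%) and 14 lower (0.70%), the median change was 0.19, and 70.1% had a positive change. Of the 1469 that overlapped late-lost H3K27ac, 3 ranked higher and 50 lower (3.40%), the median was −0.18, and 27.3% were positive. Over the 21534 that overlapped kept regions, 1.69% ranked higher and 0.71% lower. Where both marks were present, H3K4me1 thus ranked higher more often at late-gained and lower more often at late-lost regions than in the background, as a description of counts. With a replicate block they were 211 higher at late-gained and 51 lower at late-lost regions, and under the other settings they were smaller. Leaving out 1 library gave 35 to 111 higher regions at late-gained and 3 to 13 lower regions at late-lost H3K27ac, the lowest values being those without 10 h replicate 1, and ranking by fold gave 43 and 2.

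Single H3K4me1 regions show the size of these shifts, in percentiles of each list in the order 1 h replicates 1 and 2, then 10 h replicates 1 and 2. In an intron of MLLT10, a partner gene of leukaemia fusions, the values were 10.6, 9.30, 76.6 and 85.0 (change 2.86 ± 0.30 SE, limma adjusted p = 0.00026). CELSR2, a cadherin of the planar polarity family, had an exonic region at 35.6, 41.6, 91.0 and 95.2 (change 2.296). In these regions both 10 h libraries lay above both 1 h libraries with no overlap, as their choice by smallest p-value makes likely. The 0 h values lay between those of the 2 times, at 38.3 and 39.1 for MLLT10 and 63.2 and 45.6 for CELSR2. A region 21750 bp from NANOS1 also ranked higher (1.59). In the other direction, the region over CLPTM1L lay at 99.4, 99.3, 41.2 and 66.7 (change −2.56 ± 0.21, limma adjusted p = 4.23e-05) although it overlapped a late-gained H3K27ac region. At 0 h it lay at 63.0 and 61.7, between the 10 h values. Regions 4086 bp from UBE2L3 (−1.30), in GRAPL 11844 bp from AC007952.1 (−1.06) and in GRIN2B 311175 bp from EMP1 (−1.09) overlapped late-lost H3K27ac and ranked lower. A region 96833 bp from YWHAZ (−1.22), which overlapped late-gained H3K27ac, also ranked lower. A region 50694 bp from NOTCH1 that overlapped a late-lost H3K27ac region ranked higher (2.38), so the 2 marks did not always move together.

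Late-gained regions concentrated in the bodies of genes whose promoters already carried H3K27ac. Of 19548 named coding genes, 3302 held a late-gained region between their ends (16.9%) and 644 a late-lost one. Among the 11720 genes with a promoter called in all 4 lists 26.6% held a late-gained region, against 2.36% of the other 7828, and 94.4% of the 3302 genes belonged to the former. In these 11720 gene bodies the lists called 8.76 and 17.3 regions per Mb at 1 h and 29.3 and 26.1 at 10 h. In the other genes they called 3.42 and 3.57 at 1 h and 3.04 and 3.02 at 10 h. The density was thus higher at 10 h in both replicates in the first class and not in the second. At 0 h it was 10.3 and 9.54 per Mb in the first class, and the RAD21 line, at 16.4 to 20.5, lay near 1 h replicate 2.

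Within bodies, regions with and without H3K4me1 lay in different places. Of the 3798 late-gained regions outside promoters that lay within a coding gene and had no H3K4me1, 2.37% fell in the first of 10 equal parts of the gene and 12.9% in the eighth. Of the 1344 with H3K4me1 at both times, 9.90% fell in the first part, 15.6% in the second and 7.81% in the eighth. Kept regions outside promoters had 7.58% in the first part and 10.1% in the eighth. Regions without H3K4me1 were therefore sparse at the start of genes and spread over the later parts, as a description with no test.

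**Figure D2:**
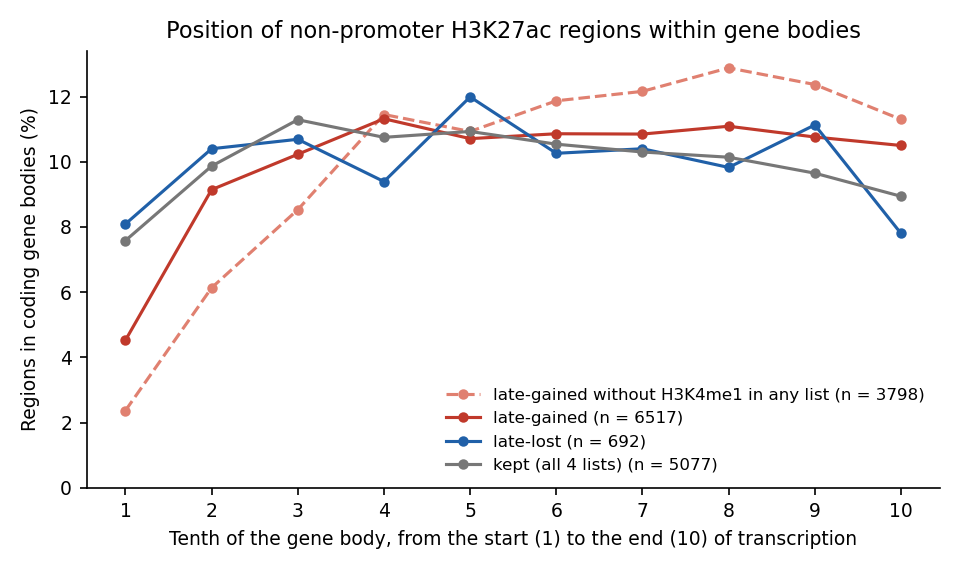
Position of H3K27ac regions that overlap no promoter within coding gene bodies cut into 10 equal parts (x axis, from the start to the end of transcription), as the share of each set (y axis, %). Points are shares of regions, with the number of regions in the legend. The dashed line of late-gained regions without H3K4me1 climbs from 2.37% in the first part to 12.9% in the eighth.

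A few genes held many late-gained regions. The 5 genes that were nearest to most of them were PRKDC (23 regions), which encodes the catalytic subunit of DNA-dependent protein kinase, XPO1 (20), a nuclear exporter of proteins, ANKRD11 (19), a chromatin regulator, IARS1 (18), an isoleucyl-tRNA synthetase, and TBCD (18), a tubulin folding factor. In IARS1 the lists called 0 and 1 regions at 1 h and 29 and 27 at 10 h, and all 18 late-gained regions lacked H3K4me1. In PRKDC they called 1 and 12 regions at 1 h and 49 and 52 at 10 h, and in XPO1 0 and 2 at 1 h and 25 and 26 at 10 h. Both 10 h libraries lay far above both 1 h libraries in these genes, which were chosen for their late-gained regions. The first 100 genes by number held 1005 late-gained regions, and 1874 genes held 1. Late-lost regions were dispersed. The most that shared a nearest gene were 5, near SMAD7, an inhibitor of TGF-β signalling, followed by 4 each near DDR2, a collagen receptor, DYSF, a membrane repair protein, RAP1GAP2, a regulator of the Rap1 GTPase, and TRIB1, a pseudokinase. All of these late-lost regions carried H3K4me1 in both 1 h lists.

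Cell cycle genes often held late-gained regions. Of 42 genes of mitosis and the kinetochore, 26 (61.9%) held late-gained regions, 80 in all, and 65 of these regions had no H3K4me1. The bodies of these 42 genes held 1.86 and 24.8 regions per Mb at 1 h and 114 and 94.1 at 10 h. Of 40 DNA replication genes, 22 (55.0%) held 55 late-gained regions, 48 of them without H3K4me1, with 3.16 and 22.8 regions per Mb at 1 h and 86.7 and 79.1 at 10 h. Neither list had a late-lost region in its bodies, nor did 5 of the other 9 gene lists, where 3.29% of all coding genes held one. By contrast, 10 of 45 canonical p53 target genes (22.2%) and 1 of 25 AP-1 and immediate early genes (4.00%) held a late-gained region, against 26.6% of genes with a promoter called in all 4 lists. Of 24 genes of the integrated stress response 7 held one, and of 30 ribosomal protein genes 5.

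The next genes were picked after their values were seen. MKI67, which encodes the proliferation antigen Ki-67, held 9 late-gained regions, with 0 and 1 regions called at 1 h and 12 and 12 at 10 h. TPX2, a spindle assembly factor, held 7, with 0 and 1 called at 1 h and 20 and 14 at 10 h. KIF23 held 6, and KIF2C, TOP2A and NUSAP1 5 each. Among replication genes UHRF1, which recruits DNMT1 to newly made DNA, held 7, with 0 and 6 regions at 1 h and 14 and 15 at 10 h. CHAF1A, a histone chaperone, held 6 and ORC1, an origin recognition subunit, 5. The gain inside the bodies of these genes stood beside the opposite change at many of their promoters, which is described further on.

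The late-gained regions with the highest percentiles at 10 h were mostly not in cell cycle genes. The first lay between genes at chr16:25564542-25566130, 137150 bp from HS3ST4, a heparan sulphate sulphotransferase gene, at percentiles 76.2 and 72.1 of the 10 h lists. It was not called in either 1 h list, was called in 1 of the 2 WT 0 h lists, at percentile 28.4, and had H3K4me1 in 1 list at 10 h and in none before. The second lay in an intron of CR1L, with CD46 as the nearest coding gene, at 72.8 and 73.4. The third lay in an intron of PTPRM, a receptor tyrosine phosphatase, at 71.5 and 70.5, with H3K4me1 in both 10 h lists and in none at 0 h and 1 h. Regions near MUC20 (70.8 and 69.4) and JADE1 (69.5 and 69.2) also had H3K4me1 in both 10 h lists and neither 1 h list, and that near CEACAM21 (69.6 and 69.1) in 1 list at 1 h. Those near PPP1R2C, ALOX5, PYGB and PAPPA had H3K4me1 in all 6 lists. Of these 10 regions 1 overlapped a promoter, that of a non-coding gene near MUC20, so the strongest late gains were also distal. The 150 bases about the summit of the first region, at chr16:25565283-25565432 on the + strand of GRCh37, are shown with their single match to the 10-base p53 sequence in capitals.
HS3ST4: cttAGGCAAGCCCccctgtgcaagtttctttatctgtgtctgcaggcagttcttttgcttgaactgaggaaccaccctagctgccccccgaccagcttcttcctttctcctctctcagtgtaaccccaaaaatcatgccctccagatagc

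Late-lost regions at the top of the 1 h lists were of another kind. The first, 30308 bp from LTBP1 on chromosome 2, was 419 bp wide and ranked at percentile 99.1 in 1 h replicate 1 and 67.9 in replicate 2, and its reference sequence is almost a pure run of G. Others lay at the ends of chromosomes, among them those near OR4F5, PGBD2 and OR4F4, which had percentiles between 59.6 and 67.1 and H3K4me1 in none of the 6 lists. Further late-lost regions of the first 10 lay at the promoter of CNTRL, a centrosome protein gene (78.9 and 69.4). The promoters of IGSF9 (65.9 and 70.0) and PBX3 (61.7 and 68.5) were also among them. So were regions in introns of non-coding genes near TMEM174 (63.5 and 69.5) and SNRPF (68.2 and 59.3). The regions of CNTRL, IGSF9, PBX3 and TMEM174 were also called in both 0 h lists and in all 4 RAD21 lists, that of CNTRL at 52.4 and 62.8 at 0 h. The regions near LTBP1 and SNRPF had H3K4me1 in both 1 h lists and in none at 0 h or 10 h. Of the promoters in the gene lists, that of CDIP1, a p53-regulated proapoptotic gene, was late-gained, and those of SP5, a Wnt target, and ONECUT2, an intestinal transcription factor, were late-lost.

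Sequence motifs were counted in 300-bp windows about the summits, on both strands. The 10-base p53 sequence occurred in 18.4% of late-gained windows, 6.69% of late-lost, 7.30% of kept and 10.5% of all 63739. Among the 393 late-gained regions with H3K4me1 in both 10 h lists and neither 1 h list it occurred in 34.9%. The full response element, in which 2 copies adjoin with no spacer, occurred in 38 late-gained windows (0.488%), 0 of 1644 late-lost windows, which allows a share of up to 0.182%, 24 kept windows (0.112%) and 101 of all (0.158%). Outside promoters the 10-base sequence was in 18.5% of late-gained, 7.00% of late-lost, 10.4% of kept and 12.05% of all windows. The full element was in 0.520%, 0%, 0.245% and 0.202% of them, so kept regions lay closer to late-gained ones there. Of the 393 windows, 14 held the full element (3.56%). Some of these elements are copies of the same sequence, as described further on. With 1 h replicate 2 as the only reference, 47 of 8472 late-gained windows (0.555%) and 0 of 8357 late-lost windows held it.

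The AP-1 motif TGANTCA had the reverse order. It was present in 19.6% of late-lost windows, 8.04% of late-gained, 10.2% of kept and 10.8% of all. Outside promoters the shares were 22.6%, 8.17%, 18.5% and 12.6%. With 1 h replicate 2 as the only reference the motif was in 13.6% of late-lost and 8.72% of late-gained windows, and outside promoters in 14.1% and 8.82%, so the late-lost share was then below that of kept regions outside promoters. Within late-gained regions, AP-1 matches were in 12.5% of windows with H3K4me1 at both times and in 5.99% of those without H3K4me1. The GC content had medians of 50.3% in both sets and 60.3% in kept regions. The TCF/LEF motif CTTTGAT (2.07% of late-gained, 3.04% of late-lost windows) and CCAAT (24.1% and 26.8%) differed less. These are counts of letters and do not show that a factor was bound.

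**Figure D3:**
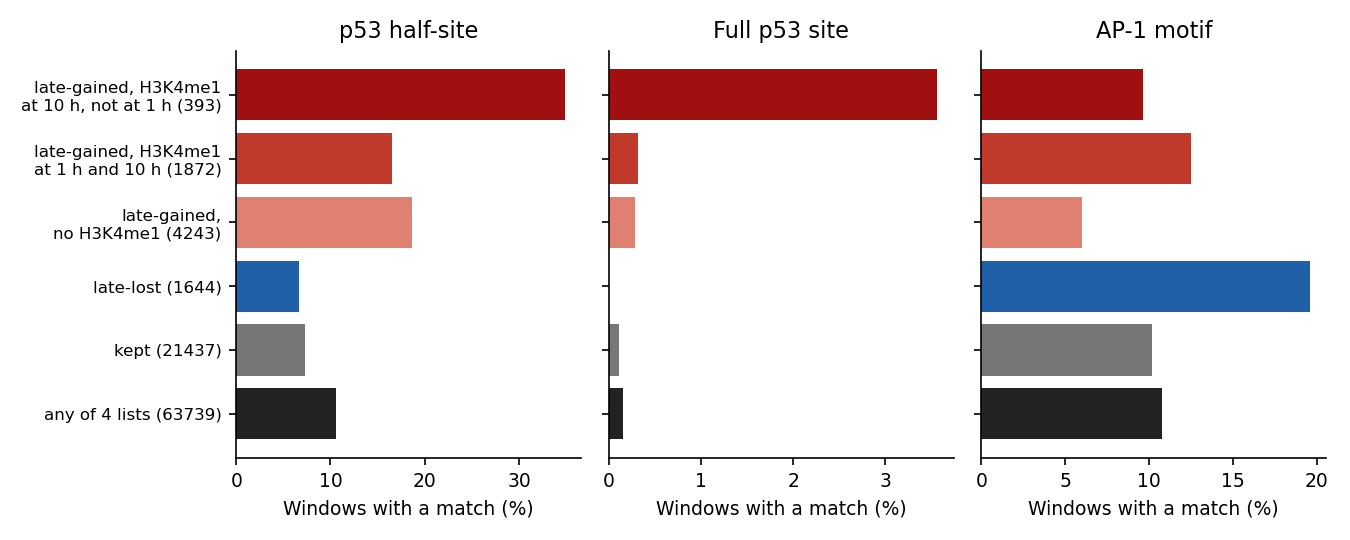
Share of 300-bp summit windows (x axes, %) with a match to the 10-base p53 sequence (half-site), the full p53 element or the AP-1 motif, for sets of H3K27ac regions (y axis, number of windows in brackets). Late-gained regions with H3K4me1 in both 10 h lists and neither 1 h list have the longest p53 bars (34.9% and 3.56%), and late-lost regions the longest AP-1 bar (19.6%).

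The 38 late-gained regions with a full p53 element mostly lay far from the start sites of coding genes. Like most late-gained regions, they mostly lacked H3K4me1 before 10 h. None was at a promoter, 24 were intronic, 13 intergenic and 1 exonic, and 29 lay more than 50000 bp from the nearest coding start site (median 142083 bp). Over all 7789 late-gained regions the median distance was 15579 bp. In 30 of the 38 neither 1 h list had H3K4me1, and in 22 both 10 h lists had it. Over all late-gained regions the shares were 64.1% and 32.6%. The centre of the element lay a median of 90 bp from the summit, within windows that reach 150 bp to either side. The highest percentiles at 10 h were those of sites in introns of CAMK2D (68.1 and 65.0) and CFTR (69.1 and 62.3). CAMK2D had H3K4me1 in both lists at each time, and CFTR in 1 list at 1 h and both at 10 h. An exonic site of NDUFAF5 (63.6 and 61.5) also had H3K4me1 in both lists at each time. The site with NMUR2, 406330 bp away, as nearest coding gene had percentiles of 67.4 and 61.1 at 10 h. That of PCDH10, a protocadherin gene 1338086 bp away, had 59.8 and 60.5, with H3K4me1 in both 10 h lists and none before. The sites of STIM2 (61.5 and 58.3), ATP2B1 (59.4 and 56.1) and GNG4 (58.6 and 55.0) lay close behind. These genes start 1490660, 524482 and 18985 bp away. Which genes these regions act on was not measured by these libraries. The elements with PCDH10, PRIM2 and ARHGAP24 as nearest coding genes are identical. On the other strand the same sequence lies at the sites nearest NDST4, FAM27A and FSCB. Those nearest TGFBR2, SPATA31A5 and ATP2B1 differ from it by a single base. The counts above thus treat copies of the same sequence as separate sites, and where the copies come from was not tested.

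Regions that were present at both times were compared in strength by the same rank method. The fit used the 18757 regions called in all 10 H3K27ac lists, with a term for the form of peak name. In effect the change is then the mean of both 10 h libraries minus 1 h replicate 2. The name term fits the WT 1 h pair exactly, so the spread comes from the other replicate pairs. The SE and p-values thus hold none of the difference between the 1 h replicates. Of these regions 3219 ranked higher at 10 h (17.2%) and 3091 lower (16.5%) at an adjusted p-value under 0.05, with a median change of 0.01. Promoters ranked higher in 18.7% and lower in 22.0%, whereas intronic regions ranked higher in 14.7% and lower in 5.34%. Without the term for the name, 2271 of the higher and 2451 of the lower calls remained and 0 were opposite. When fold enrichment was ranked, 1377 and 1286 regions were called, and without 1 h replicate 2, 44 and 98 of the calls became opposite. In what follows, values in a sentence are percentiles among the 18757 regions in 1 h replicates 1 and 2 and 10 h replicates 1 and 2, where 100 is the strongest.

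The falls with the smallest p-values were mostly at promoters of DNA replication genes. MCMBP, which encodes a binding partner of the MCM helicase, lay at 99.96, 99.9, 62.3 and 61.5, a change of −2.83 ± 0.13 (SE, limma adjusted p = 3.64e-12). MCM7, a subunit of that helicase, lay at 99.6, 99.8, 68.9 and 69.5 (−2.39 ± 0.13, adjusted p = 3.62e-11), and MCM3, another subunit, at 96.2, 94.7, 31.3 and 28.02 (−2.15). The 10 h libraries of each lay below both 1 h libraries with no overlap, as their choice by smallest p-value makes likely. RRM2, the regulated subunit of ribonucleotide reductase, lay at 88.3, 98.6, 46.4 and 42.7 (−2.33 ± 0.12, adjusted p = 1.94e-11). DNMT1, the maintenance DNA methyltransferase, lay at 94.9, 92.8, 28.6 and 24.0 (−2.10 ± 0.12, adjusted p = 3.62e-11). GINS2, a subunit of the replicative helicase, lay at 90.7, 73.8, 7.92 and 7.05 (−2.08), and POLE, the catalytic subunit of DNA polymerase ε, at 92.1, 96.8, 54.5 and 51.3 (−1.78).

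PLK4, the kinase of centriole duplication, lay at 98.5, 96.7, 43.8 and 47.9 (−1.95), and DPYSL2, a cytoskeletal regulator, at 89.7, 86.3, 19.0 and 18.6 (−1.98). The only one of the 10 lowest regions outside a promoter was at the end of chromosome 5, chr5:10010-11783, 80500 bp from PLEKHG4B, which lay at 99.9, 98.4, 9.67 and 25.5 (−3.13). At 0 h most of these promoters had stood below their 1 h level. RRM2, with 90.2 and 87.1 at 0 h, overlapped its 1 h level. The 0 h percentiles (replicates 1 and 2) were 69.9 and 73.1 for DNMT1, 77.6 and 83.3 for MCM3, 63.8 and 61.5 for GINS2 and 91.8 and 93.3 for MCMBP, all above the 10 h values. The 10 h values were thus also below the level of the untreated libraries, whose peak names have the other form.

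The rises with the smallest p-values were mostly at promoters. CREBRF, a regulator of the CREB3 stress factor, lay at 40.5, 29.9, 95.5 and 89.9 (2.01 ± 0.14, limma adjusted p = 1.03e-09), with 90.3 and 90.2 at 0 h. IRF9, the DNA-binding subunit of the interferon-activated complex ISGF3, lay at 22.5, 16.3, 81.4 and 74.7 (1.76 ± 0.13, adjusted p = 3.69e-09), with 80.4 and 81.9 at 0 h. FBXO38, an F-box protein of ubiquitin ligases, lay at 65.7, 55.0, 95.1 and 95.2 (1.53), with 97.2 and 96.3 at 0 h. The 10 h values of these 3 promoters lay above both 1 h values and near those at 0 h. The same held for PRKCZ, an atypical protein kinase C, at 54.6, 55.8, 93.2 and 93.3 (1.35), with 90.5 and 89.8 at 0 h, and for YPEL5 (1.39) and HCCS (1.42), the haem lyase of cytochrome c.

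An intronic region of OSBPL3, an oxysterol-binding protein gene, differed in that it lay at 42.7 and 54.5 at 0 h, 46.8 and 47.9 at 1 h and 94.6 and 92.9 at 10 h (1.59 ± 0.14, limma adjusted p = 1.46e-08). DLD, the dihydrolipoamide dehydrogenase (1.46), TCAIM, a mitochondrial protein (1.37), and SWI5, a recombination factor (1.39), completed the first 10. For TCAIM the 1 h libraries stood apart, at 89.5 and 71.1, and the 10 h libraries at 97.6 and 97.0 were above both. Of the 20 regions named here, each kept its direction and its call when the fold was ranked, when the name term was left out and when any single 1 h or 10 h library was left out.

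**Figure D4:**
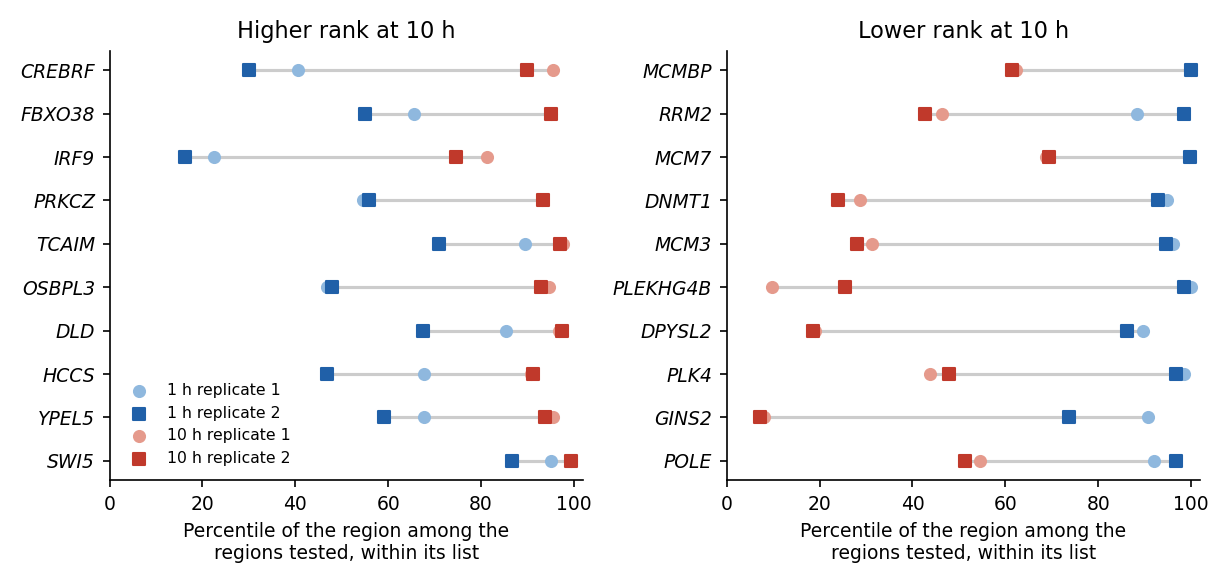
H3K27ac percentile (x axis) of the 20 regions described above, 10 per direction, among the 18757 regions tested within each list (y axis, nearest coding gene). Circles and squares are replicates 1 and 2, blue at 1 h and red at 10 h, and a grey line spans the 4 libraries. In all 20 regions the 1 h and 10 h libraries do not overlap, as the rule that chose them makes likely.

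Gene lists set these regions in context, and each list's counts are read against the 10592 tested promoters of coding genes, of which 18.7% ranked higher and 23.1% lower with a median change of −0.04. Of 39 tested promoters of replication genes, 33 ranked lower (84.6%) and 1 higher, with a median of −1.18. The lower ones included PRIM1, the DNA primase subunit, at 69.4, 75.5, 0.97 and 7.73 (−2.57), E2F1, the activator of the S-phase programme, at 95.8, 93.6, 33.98 and 37.01 (−1.89), and MCM5 at 87.9, 92.4, 30.8 and 39.2 (−1.82). The exception was ORC1 (0.40), at 77.1, 87.7, 93.9 and 94.2. The 5 not called, named here after their values were seen, were CDC45, CCNE1, POLA1, FEN1 and PCNA, the sliding clamp, which lay at 86.2, 88.0, 89.1 and 88.5 (change 0.04 ± 0.11). The count of lower promoters was 32 without the name term and 31 by fold.

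Of 42 mitosis and kinetochore promoters, 20 ranked lower (47.6%) and 3 higher, with a median of −0.26. SPC25, a subunit of the NDC80 complex, lay at 46.0, 47.6, 1.91 and 3.99 (−1.85 ± 0.17, limma adjusted p = 4.42e-08). CDK1, the mitotic kinase, lay at 82.4, 80.2, 23.1 and 20.8 (−1.62), and MKI67 at 93.4, 91.5, 41.2 and 40.1 (−1.61). The promoters of KIF23 (−0.86), TOP2A (−0.81) and TPX2 (−0.54) also ranked lower. MKI67, CDK1, KIF23, TPX2 and TOP2A thus had promoters of lower rank and late-gained regions in their bodies, whereas the promoter of KIF2C, which held 5 such regions, was not called (0.08). CDC25C (0.82), CENPK (0.57) and CENPE (0.41) ranked higher. The lower count was 22 without the name term and 15 by fold.

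Promoters of canonical p53 targets moved in both directions. Of 42 tested, 11 ranked higher (26.2%) and 6 lower (14.3%), with a median of 0.11. RPS27L, a ribosomal protein paralogue induced by p53, lay at 77.0, 68.4, 94.0 and 92.9 (1.03 ± 0.12). PHLDA3, an inhibitor of AKT, lay at 71.7, 63.8, 89.7 and 87.4 (0.85), and GDF15, a secreted stress cytokine, at 40.6, 51.3, 74.3 and 77.2 (0.67 ± 0.13, limma adjusted p = 0.000366). TNFRSF10C, a decoy receptor of TRAIL, lay at 5.58, 2.12, 33.3 and 28.6 (1.53 ± 0.27). Both 10 h libraries lay above both 1 h libraries for these 4 genes, and at 0 h GDF15 lay at 40.1 and 35.1 and PHLDA3 at 49.3 and 46.4. AEN (0.72), TP53INP1 (0.72), TP53INP2 (0.63), PLK2 (0.38), POLH (0.37), TIGAR (0.35) and SESN1 (0.33) were also called higher.

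The 6 promoters of the list that ranked lower were a smaller share than among all coding promoters. MDM2, which encodes HDM2, lay at 98.0, 98.5, 95.6 and 90.6 (−0.67 ± 0.16, limma adjusted p = 0.00206), with 93.8 and 91.8 at 0 h. GADD45A, a growth arrest gene, lay at 86.2, 96.1, 79.0 and 81.5 (−0.92), with 69.0 and 71.6 at 0 h. TNFRSF10A (−0.58), SFN (−0.51), PLK3 (−0.34) and PMAIP1 (−0.33) were the others. CDKN1A, which encodes p21, lay at 52.4, 74.5, 64.1 and 69.2, so the 10 h libraries lay between the 1 h libraries and no change was called (−0.23 ± 0.12, adjusted p = 0.166). Without 1 h replicate 2 the change was 0.37 (adjusted p = 0.0187), the opposite sign. TP53I3, a quinone oxidoreductase gene, lay at 45.9, 43.8, 56.3 and 48.6 (0.22 ± 0.17, adjusted p = 0.333). By fold 5 promoters of the list ranked higher and 0 lower. MDM2 (−1.05, adjusted p = 0.0983) and PLK2 (0.52, adjusted p = 0.0896) were then not called, although their changes were larger. Without the name term 10 ranked higher and 2 lower.

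The study's own distal p53 targets, in the 26 genes taken from its text, had 13 promoters of lower and 4 of higher rank, with a median of −0.28. This list was chosen by the study on these samples and is not independent evidence. E2F2, an S-phase activator, lay at 88.8, 90.6, 15.0 and 33.3 (−2.05), JAG2, a Notch ligand, at 64.7, 73.8, 48.7 and 46.8 (−0.69 ± 0.13, limma adjusted p = 0.000264), and BRD7, a bromodomain subunit of a SWI/SNF complex, at 92.7, 81.1, 60.7 and 39.6 (−0.88). TENT4B, a poly(A) polymerase, lay at 91.9, 89.97, 86.4 and 87.0 and was not called (−0.17 ± 0.12, adjusted p = 0.30). By fold, 4 of the list ranked lower and 2 higher, and JAG2 (−0.40) and BRD7 (−0.81) were no longer called.

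Promoters of the integrated stress response moved in both directions. Of 22 tested, 10 ranked lower and 4 higher, with a median of −0.43. ASNS, asparagine synthetase, lay at 94.1, 80.5, 40.9 and 37.2 (−1.14), and MTHFD2, an enzyme of mitochondrial folate metabolism (−1.09), PSAT1, of serine synthesis (−0.80), and ATF4, a factor that activates these genes (−0.90), ranked lower. DDIT3, which encodes CHOP, lay at 56.6, 67.0, 92.0 and 88.5 (0.86), and XBP1 (0.57), HSPA5 (0.47) and CEBPB (0.44) also ranked higher. The lower count was 7 both without the name term and by fold.

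Counts in most of the remaining lists depended on how the 1 h libraries were treated. AP-1 and immediate early promoters had 5 of 25 higher and 6 lower (median −0.04), but 8 and 2 without the name term (median 0.26) and 17 and 3 without 1 h replicate 2. KLF6, a zinc finger factor, lay at 88.7, 98.1, 99.97 and 99.9 (1.28) and JUNB at 58.4, 85.5, 97.0 and 93.8 (0.65), whereas DUSP5, a phosphatase of ERK, lay at 73.0, 98.1, 83.2 and 83.4 (−1.10), between the 1 h libraries. Ribosomal protein promoters had 14 of 30 lower and 1 higher (median −0.27), 5 and 2 without the term, and 5 and 11 without 1 h replicate 2. Growth factor and MAPK feedback promoters had 5 of 20 lower and 1 higher (median −0.10), and 1 and 0 without the term, with the median turning to 0.05. Without 1 h replicate 2 there were 2 lower and 9 higher. TGFA, a ligand of the EGF receptor and the 1 called higher, lay at 76.9, 74.4, 82.9 and 83.9 (0.32 ± 0.12, limma adjusted p = 0.0412), and by fold it was not called (0.26, adjusted p = 0.37). Adhesion and laminin promoters had 9 of 21 lower and 4 higher (3 and 5 without the term, 1 and 8 without 1 h replicate 2). Wnt targets had 4 of 15 lower and 1 higher (1 and 1 without the term), and intestinal factors 5 of 16 lower, among them KLF5 (−0.62) and GATA6 (−0.75), and 2 higher, among them SOX9 (0.49), with 6 and 1 without the term.

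**Figure D5:**
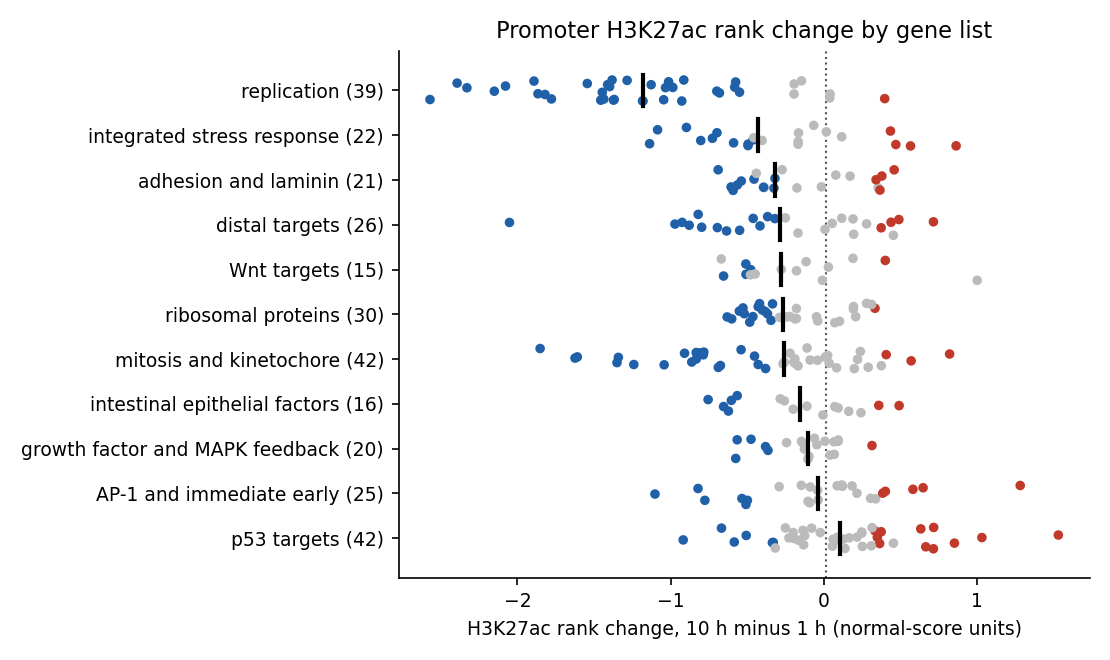
H3K27ac rank change from 1 h to 10 h (x axis, normal-score units) at the promoters of 11 gene lists (y axis, number of promoters tested). Points are promoters, blue where called lower, red where called higher and grey where not called, black bars are list medians, and the dotted line is the median of all 18757 regions. Replication genes lie farthest to the left, with a median of −1.18.

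Promoter sequences were compared in windows from 250 bp before to 50 bp after each start site. The E2F motif (TTTCCCGC, TTTCGCGC, TTTGCCGC or TTTGGCGC, either strand) occurred in 8.88% of promoters that ranked lower, 4.87% of those that ranked higher and 4.75% of those not called, against 5.74% of all tested. It was in 20 of 40 replication promoters (50.0%). The cAMP response element TGACGTCA had the reverse order, at 2.04%, 5.94% and 3.51%. In mitosis promoters 36 of 42 held CCAAT (85.7%) and 29 held the CHR letters TTTGAA (69.1%), against 36.5% and 8.48% of those tested. CCAAT and CHR elements are known features of mitotic promoters and E2F sites of replication promoters.

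The 150 bases before the start site are shown for 3 promoters that ranked lower and 2 that ranked higher, with matches to the E2F motif, CCAAT and the GC box GGGCGG in capitals. MCMBP (chr10:121632356-121632505, − strand) and GINS2 (chr16:85722561-85722710, − strand) hold an E2F match and GC boxes. CDC6 (chr17:38443981-38444130, + strand), a licensing factor that lay at 93.3, 90.5, 49.9 and 45.4 (−1.37), holds CCAAT boxes and no E2F match. Of lower promoters not shown, those of RRM2, MCM3, DNMT1 and PLK4 had no E2F match in this stretch, and those of MCM7 and POLE had a match. CREBRF (chr5:172483205-172483354, + strand) and PRKCZ (chr1:1981700-1981849, + strand) hold CCAAT and GC boxes and no E2F match. All are given 5′ to 3′ along the gene from GRCh37.
MCMBP: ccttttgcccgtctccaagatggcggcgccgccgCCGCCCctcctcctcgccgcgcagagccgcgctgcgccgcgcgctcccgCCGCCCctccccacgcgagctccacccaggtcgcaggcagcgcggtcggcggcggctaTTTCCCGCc
GINS2: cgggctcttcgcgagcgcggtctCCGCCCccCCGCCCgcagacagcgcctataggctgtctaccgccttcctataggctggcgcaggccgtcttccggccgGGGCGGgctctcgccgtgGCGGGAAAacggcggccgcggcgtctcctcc
CDC6: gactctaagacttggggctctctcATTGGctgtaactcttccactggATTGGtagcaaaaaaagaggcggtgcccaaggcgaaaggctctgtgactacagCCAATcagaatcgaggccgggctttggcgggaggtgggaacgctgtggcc
CREBRF: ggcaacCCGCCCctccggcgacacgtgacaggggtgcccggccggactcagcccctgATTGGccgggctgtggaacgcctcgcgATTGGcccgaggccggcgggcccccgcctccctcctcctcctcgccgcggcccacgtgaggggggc
PRKCZ: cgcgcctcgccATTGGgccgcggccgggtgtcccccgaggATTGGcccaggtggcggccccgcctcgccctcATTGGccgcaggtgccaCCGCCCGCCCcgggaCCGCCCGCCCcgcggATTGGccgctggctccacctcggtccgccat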

How the data were processed

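The series held 26 ChIP-seq libraries. The 16 H3K27ac and H3K4me1 libraries were read, and the 10 input libraries were not analysed here. According to the methods of the study, the authors trimmed reads with Trim Galore 0.6.6, aligned them to GRCh37 with Bowtie2 2.3.2, removed duplicates, blacklisted and low-quality reads with SAMtools, and called peaks per replicate with MACS2 2.2.7.1 against input (for the lists whose peak names lack that word, not checked here), as narrow peaks for H3K27ac and broad peaks for H3K4me1. The deposited lists give each peak its fold enrichment, a ratio of ChIP over background. The deposited significance values of the peak caller are the −log10 p-value and the q-value on the same −log10 scale, and the authors' narrow lists add a summit. None holds read counts, so the depth is unknown here and count tests were not possible. A longer list reaches weaker peaks, and the H3K27ac lists held from 31640 to 49127 peaks.

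Peaks that overlapped or touched were merged per mark (10 and 6 lists), with an overlap of at least 1 bp as shared. Regions were classed against GENCODE 44 on GRCh37 in the order promoter, exonic, intronic, intergenic. The nearest gene is the named protein-coding gene with the closest start site, and distances are to that site. Regions called in every list of a mark were ranked in each list by −log10 p-value, and limma 3.58.1 (R 4.3.3) was fitted to normal scores of the ranks over all groups. For H3K27ac the fit had a term for peak names that hold the word input. This term comes from the 1 h WT pair alone, so the contrast equals both 10 h libraries minus 1 h replicate 2, and without that library form and time cannot be told apart. Regions were called at 0.05 after Benjamini-Hochberg adjustment over all regions tested. Percentiles of late-gained and late-lost regions are within each list, and those of fitted regions are among the regions tested. Motif windows were 300 bp about the summit of the first list that called the region, in the order 10 h replicates 1 and 2, then 1 h replicates 2 and 1. Python 3.11.15, numpy 2.4.6 and pandas 2.3.3 were used.

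The regions, gene lists and tests were chosen with earlier results of these data known. Regions were named by rule: the 10 late-gained and 10 late-lost regions of highest mean percentile, the 10 fitted regions of smallest p-value in each direction, the 5 genes nearest to most late-gained and to most late-lost regions, the 5 H3K4me1 regions of smallest p-value in each direction that overlap either set, promoters of listed genes that were called, and 10 fixed genes. A few regions and sequences that the rule names are not reported here. Genes named for regions in their bodies, promoters that were not called and p53 sites were picked after their values were seen. Alternatives were 1 h replicate 2 as the only reference, a stricter q-value, lists of equal length, a cover of 50% for shared peaks, a wider promoter, fold ranking, no name term, a replicate block and leaving out each library.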

Additional observations from a re-analysis of the deposited data

How the results depend on the processing

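The numbers of late-gained (7789) and late-lost (1644) regions moved with most choices. With 1 h replicate 2 as the only reference they were 8472 and 8357, at a −log10 q-value of at least 5 they were 1728 and 611, and with lists of equal length 3037 and 1958. Leaving out each list in turn gave 8472 to 16529 late-gained and 2237 to 8357 late-lost regions. Settings added after the data were seen were 1 list of each time (10 h replicate 1 or 2 against 1 h replicate 2), with 17493 and 15105 gained and 9734 and 9959 lost, and equal lists with 1 h replicate 2 as reference, with 3680 and 5369. The properties with equal lists and the gene lists without a library were also added then. The cause was not tested beyond the length and number of the lists.

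Of the properties, late-gained regions without H3K4me1 (54.5%) were 51.3% with the single reference, 48.8% at the stricter q-value and 45.7% with equal lists, and those with H3K4me1 in both 1 h lists (27.2%) were 30.9% and 33.3% with the first and last of these. Late-lost regions with H3K4me1 in both 1 h lists (92.1%) were 61.0%, 95.1% and 95.7%. Late-gained regions in coding genes (89.5%) were 87.1%, 85.8% and 87.5%, and late-lost ones (56.8%) 70.3% with the single reference. At promoters, late-gained regions (6.21%) were 7.71% with equal lists and 13.7% with a window of 2000 bp to either side, and late-lost regions (19.2%) 9.44% with the single reference, 26.5% at the stricter q-value and 25.4% with the wider window. The median width was 887 bp and 1220 bp for late-gained and 481 bp and 1034 bp for late-lost regions with the single reference and the stricter q-value.

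Ranking by fold gave 1377 higher and 1286 lower H3K27ac regions in place of 3219 and 3091, and 151 and 211 also without the name term, a setting added later. Leaving out a library gave 2486 to 4255 and 2560 to 4191. For H3K4me1, fold gave 171 and 29 in place of 1159 and 684, and leaving out a library 121 to 475 and 66 to 200. By fold 5 p53 target promoters ranked higher in place of 11. Leaving out a library gave CDKN1A a change of −0.30 to 0.37 in place of −0.23, the positive value without 1 h replicate 2. Of the 30 named fitted regions, 25 kept their side of the threshold by fold and 29 without the name term.

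Replicates share only a number in the labels, and same-numbered H3K27ac libraries at 1 h and 10 h did not deviate together (correlation 0.03). With a replicate block the H3K27ac counts were 2966 and 2847, those for H3K4me1 1268 and 751, and 33 replication and 19 mitosis promoters ranked lower.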
